A study of Mus musculus with 48 samples.

Results

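The genes described here encode the degrading machinery of the lysosome in cultured mouse macrophages. The list held 34 symbols: 9 subunits or accessory proteins of the vacuolar proton pump, 6 membrane and transport proteins, 7 cathepsins and carboxypeptidases, 8 other hydrolases with their activators, and 4 further genes (the transcription factor genes Tfeb, Tfe3 and Mitf, and Gpnmb). They were listed by name, but with earlier results of these data known, and 32 of the 34 were measured, each by 1 probe set, among 19505 genes on the array. Ctsd and Glb1 were not analysed here. Atp6v0d2, which encodes the d2 form of a stalk subunit of the pump, is also described on its own.

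The macrophages came from 2 sources. Kupffer cells, which reside in the liver sinusoids, were sorted magnetically by F4/80 from the livers of BALB/c male mice, and monocytes were sorted by CD115 from the blood of the same animals. All cells spent 1 day in MCSF, the growth factor on which macrophages depend, and then 3 days or 1 day with hepatocyte growth factor (HGF), with Ito cells (the stellate cells of the liver) or with CD146 cells (its sinusoidal endothelial cells), while the controls stayed in MCSF. Cell origin, addition and time thus gave 16 groups of 3 arrays each: Kupffer cells with HGF, Ito cells, CD146 cells or MCSF alone, and monocytic macrophages with the same 4, each for 3 days and for 1 day. The titles call the replicates biological, but the labels do not state if the added cells were separated from the macrophages when RNA was taken and if MCSF was still given together with an addition. P-values therefore measure only the spread between these cultures, and the number of arrays limits the precision.

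Lysosomes digest what macrophages take up, and their enzymes work in acid. The V-ATPase makes that acid: its V1 sector burns ATP in the cytosol, and its membrane-bound V0 sector carries protons into the lumen, with the d subunit joining the rotating parts. Cathepsins cut proteins there, glycosidases strip sugars from lipids and glycans, and Lipa frees cholesterol and fatty acids from lipoprotein lipids. TFEB, TFE3 and MITF are related transcription factors that bind the E-box CACGTG and are known to drive many lysosomal genes together, while Atp6v0d2 and Ctsk are best known from osteoclasts, macrophage relatives that dissolve bone.

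The letters that these factors are known to bind were searched in the promoters, taken from the RefSeq table of GRCm38.p6 as 250 bases before to 50 bases after each annotated gene start. Of the 34 symbols 28 had an entry there. CACGTG stood in 10 of the 28 (35.7%), against 8.09% of 27025 genes with an entry. The longer TCACGTG, each copy of which contains CACGTG, stood in 9 (32.1%), against 4.29% of all, and TCATGTG stood in 4 (14.3%), those of Ctsa, Ctss, Gla and Grn, against 4.31% of all. Both strands were searched throughout. A match is a string of letters and no measured binding site. The stretches around CACGTG are shown for the 8 measured genes that hold it, written on the strand of the gene, with capitals for CACGTG and any flanking T before or A after it.
Ctsa, chr2:164833741-164833803, plus strand: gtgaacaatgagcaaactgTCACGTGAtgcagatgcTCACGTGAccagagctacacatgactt
Mcoln1, chr8:3500428-3500499, plus strand: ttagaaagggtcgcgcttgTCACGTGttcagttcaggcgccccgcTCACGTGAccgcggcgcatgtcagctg
Lamp1, chr8:13159080-13159171, plus strand: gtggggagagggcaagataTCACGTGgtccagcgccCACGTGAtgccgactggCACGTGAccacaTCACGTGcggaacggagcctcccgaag
Atp6v0d1, chr8:105566042-105566087, minus strand: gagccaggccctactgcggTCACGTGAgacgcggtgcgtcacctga
Gaa, chr11:119267803-119267848, plus strand: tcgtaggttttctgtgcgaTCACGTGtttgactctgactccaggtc
Ctsl, chr13:64370731-64370770, minus strand: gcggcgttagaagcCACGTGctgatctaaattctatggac
Atp6v1a, chr16:44139365-44139410, minus strand: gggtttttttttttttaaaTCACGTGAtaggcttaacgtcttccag
Gla, chrX:134601174-134601252, minus strand: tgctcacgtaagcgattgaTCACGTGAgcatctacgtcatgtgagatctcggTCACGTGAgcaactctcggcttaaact

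Lamp1 held 4 copies, Ctsa, Mcoln1 and Gla held 2 each, and Atp6v0d1, Gaa, Ctsl and Atp6v1a held 1. Atp6v0d2, Atp6v1b2, Atp6v1c1, Atp6v1h, Ctsb and Npc1 are not in that table. Slc46a3 and Ctsk, whose levels differed most with culture time or with additions among the other genes with an entry, held none of the 3 strings, so their whole windows are shown for comparison.
Slc46a3, chr5:147894766-147895065, minus strand: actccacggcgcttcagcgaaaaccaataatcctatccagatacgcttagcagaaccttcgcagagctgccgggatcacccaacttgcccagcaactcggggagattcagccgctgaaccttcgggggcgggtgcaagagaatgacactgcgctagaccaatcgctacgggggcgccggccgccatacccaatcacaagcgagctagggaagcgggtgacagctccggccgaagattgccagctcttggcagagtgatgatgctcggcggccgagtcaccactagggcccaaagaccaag
Ctsk, chr3:95498960-95499259, plus strand: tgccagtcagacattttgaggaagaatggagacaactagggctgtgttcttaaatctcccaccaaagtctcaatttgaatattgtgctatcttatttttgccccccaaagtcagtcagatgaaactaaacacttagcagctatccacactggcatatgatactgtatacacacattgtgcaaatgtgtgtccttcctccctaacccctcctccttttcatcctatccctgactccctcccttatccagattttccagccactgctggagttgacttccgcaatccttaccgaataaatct

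All values that follow are log2 signals as deposited, and a difference of 1 is a 2-fold change of the signal. Differences are between group means (n = 3 each) with their limma SE, and verbs such as rose or fell, and the words higher or lower, are used of a gene only where its p, adjusted over all 19505 genes, was under 0.05. Negative control probe sets, a measure of background, averaged 5.18 to 6.02 over the groups. Tfeb was above them on 31 of 48 arrays, Slc46a3 on 41, Atp6v0d2 on 46, Ctsk on 47 and every other member on all 48. At the bright end the means of Ctsb in 15 groups, of Gpnmb in 7, of Psap in 5 and of Ctsl in 2 lay within 1 log2 unit of the highest signal in the table, 19.93, so their differences may be understated. In 7 of the comparisons of 2 groups the median of all genes was itself shifted by over 0.1: by -0.17 for Kupffer cells with HGF, by -0.24 with Ito cells, by -0.55 for monocytic macrophages with HGF and by -0.28 with Ito cells, all after 1 day, by 0.11 for Kupffer cells with Ito cells after 3 days, and between 3 days and 1 day by 0.15 in the Kupffer control and by 0.13 in the monocytic control. Differences of these comparisons are given relative to that median, while calls and adjusted p are those of the unshifted differences.

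The labels were checked against marker genes. Of 12 measured core macrophage genes, 11 or 12 were above the negative controls in every group, and their mean level was 13.61 to 15.71. That does not tell the origins apart. After 1 day 13 Kupffer cell genes averaged 9.16 in the Kupffer control, against 7.21 in the monocytic control. The 8 monocyte genes averaged 11.49, against 11.62. After 3 days these means were 9.23, against 9.52, and 10.57, against 9.31. Neither list thus separated the controls of 3 days in the direction of the labels, and origins below follow the labels. Each array correlated with its closest group mate by 0.943 to 0.996 over all genes, and no 2 arrays were identical. Replicate 1 of the Kupffer control of 1 day stood apart, with B cell genes at 4.00 against 8.43 and 9.39 in its mates and core macrophage genes at 13.39 against 14.51 and 14.69. Replicate 2 of the Kupffer cells with HGF for 1 day had core macrophage genes at 14.33 against 14.75 and 14.80, and replicate 3 of the monocytic control of 3 days had cell cycle genes at 11.85 against 6.90 and 7.08. Leaving out these 3 arrays together ended 14 of the single-gene calls. In such bulk cultures fewer cells of a type and less RNA per cell cannot be told apart.

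Atp6v0d2 spanned 11 log2 units between its lowest and highest group mean, the widest span of the 32 genes. It was near background in 1-day cultures and high in monocytic macrophages of 3 days. Kupffer cells kept with Ito cells for 1 day gave 12.67, 12.56 and 12.78, against 4.80, 6.56 and 6.85 in the Kupffer control. None of the other 1-day arrays, of either origin, was above 7.93, so these 3 arrays stood alone. The difference was 6.85 ± 0.47 (adjusted p = 7.43e-14), and before subtraction of the median it was 6.60, or 5.97 without replicate 1 of the control.

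For Atp6v0d2 monocytic macrophages of 3 days gave 16.78, 16.34 and 16.40 with HGF, 15.56, 16.18 and 14.76 with Ito cells and 15.61, 16.48 and 16.56 with CD146 cells, against 16.36, 16.68 and 13.94 in the control. Each addition overlapped the control, and none passed the test. With Ito cells the gene was called lower when the 3 arrays that stood apart were left out (-1.02, adjusted p = 0.0271) and with array weights (-1.01, adjusted p = 0.016). Of the monocytic arrays of 3 days, the one at 13.94 is the replicate with high cell cycle genes. Every Kupffer array of 3 days lay below every monocytic array of 3 days, though the levels of the origins were tested against each other only in the controls. Kupffer cells with HGF gave 12.26, 11.05 and 12.03, with Ito cells 9.82, 10.31 and 9.66, with CD146 cells 9.12, 9.29 and 9.04, and in the control 12.15, 11.03 and 10.58. The arrays with HGF overlapped the control, at 0.53 ± 0.47 without passing, although with array weights the gene was called higher (0.83, adjusted p = 0.0415). CD146 cells lowered it, at -2.10 ± 0.47 (adjusted p = 0.0005), and so did Ito cells, at -1.43 ± 0.47 (adjusted p = 0.0326), a call that was lost without control replicate 1, Ito replicate 1 or Ito replicate 3, with adjusted p up to 0.219. Kupffer cells with Ito cells were thus the only combination of origin and addition with more Atp6v0d2 after 1 day, at a mean of 12.67 ± 0.11 (SD), than after 3 days, at 9.93 ± 0.34.

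In order of group means, Atp6v0d2 stood highest in the 4 monocytic groups of 3 days, which lay between 16.51 ± 0.24 and 15.50 ± 0.71 (SD, n = 3 each). Neighbours in that order overlapped, but the arrays with HGF, the highest group, all lay above those with Ito cells, the lowest of the 4. Below them came Kupffer cells with Ito cells for 1 day, then Kupffer cells with HGF for 3 days at 11.78 ± 0.64 and the Kupffer control of 3 days at 11.25 ± 0.81, which overlapped. Kupffer cells with Ito cells at 9.93 and with CD146 cells at 9.15 ± 0.13, both for 3 days, followed without overlap. Next came monocytic macrophages with Ito cells for 1 day at 7.56 ± 0.33. Kupffer cells with CD146 cells at 7.18 ± 0.16 and the monocytic control at 7.10 ± 0.19, both of 1 day, followed. Neighbours overlapped here, but the lowest monocytic array with Ito cells, at 7.313, lay just above the highest array of the monocytic control, at 7.311. At the low end were monocytic macrophages with CD146 cells at 6.52 ± 0.17, the Kupffer control at 6.07 ± 1.11, monocytic macrophages with HGF at 5.87 ± 0.31 and Kupffer cells with HGF at 5.51 ± 0.62, again all of 1 day. Neighbours overlapped among these too, but the monocytic arrays with CD146 cells, from 6.35 up, all lay above the HGF arrays of both origins, which reached 6.09. HGF was called to lower the gene in monocytic macrophages, at -0.68 ± 0.47, or -1.23 before subtraction, to which the adjusted p of 0.0377 belongs. That call was lost when any 1 of the 6 arrays was left out. It was also lost under quantile normalization (-0.70, adjusted p = 0.587) and under centring (-0.63, adjusted p = 0.519).

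Between the controls Atp6v0d2 rose with time in both origins. Kupffer cells gave 12.15, 11.03 and 10.58 after 3 days, against 4.80, 6.56 and 6.85 after 1 day, a difference of 5.04 ± 0.47 (adjusted p = 1.19e-11). Monocytic macrophages gave 16.36, 16.68 and 13.94 after 3 days, against 7.31, 6.97 and 7.01 after 1 day, a difference of 8.43 ± 0.47. Before subtraction of the median these differences were 5.18 and 8.56, with 4.55 for Kupffer cells without control replicate 1 of 1 day and 9.42 for monocytic macrophages without control replicate 3 of 3 days. The Kupffer control was lower than the monocytic control after 3 days, at -4.41 ± 0.47 (adjusted p = 1.56e-09, and -5.27 without that replicate). After 1 day it was at -1.03 ± 0.47 without passing (adjusted p = 0.116). This depended on single arrays and on scaling. The difference was -1.42 (adjusted p = 0.0395) without Kupffer control replicate 3 and -1.28 (adjusted p = 0.0384) under centring. Without the 3 arrays that stood apart, among them Kupffer control replicate 1, it was -0.39 (adjusted p = 0.472).

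Atp6v0d1 encodes the d1 form of the same subunit, the form that most tissues use. Its 48 arrays lay between 11.49 and 14.48, and its group means spanned 1.25. Kupffer cells kept with Ito cells for 1 day gave 13.57, 13.99 and 13.93, and Atp6v0d1 was higher than in the control by 1.08 ± 0.30 (adjusted p = 0.0421), a call lost without any of 3 of the arrays. It passed in no other comparison of 2 groups, while Atp6v0d2 passed in 7 of 16.

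**Figure D1:**
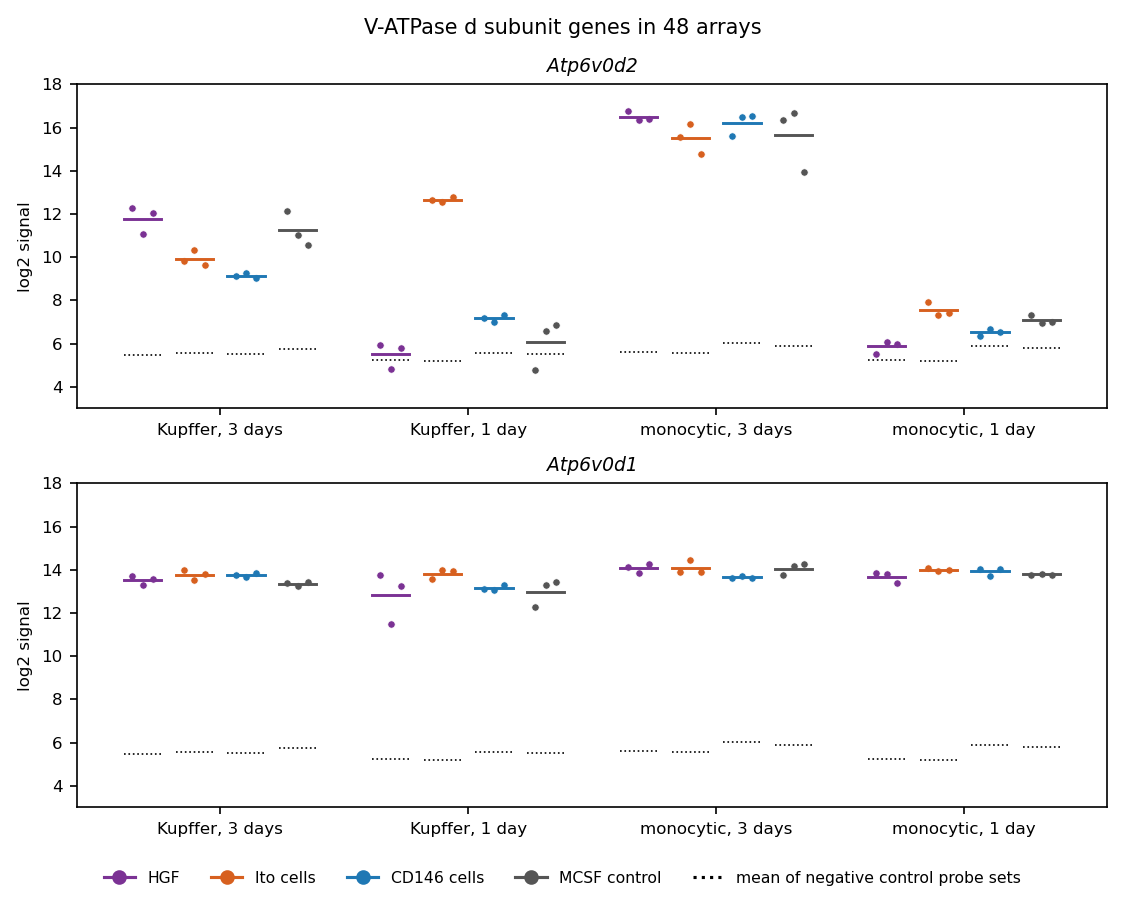
Log2 signal of Atp6v0d2 (top) and Atp6v0d1 (bottom) on each array (points) with group means (bars) in Kupffer cells and monocytic macrophages with HGF, Ito cells, CD146 cells or MCSF alone for 3 days and 1 day. The dotted line is the mean of the negative control probe sets. Atp6v0d2 spans 11 log2 units over the group means and Atp6v0d1 spans 1.25.

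Over the 16 group means, and among 6087 genes with a span of at least 2 log2 units, the genes whose pattern was most like that of Atp6v0d2 were Lhfpl2 (Pearson r = 0.94), Mfge8 (0.93), Hgf (0.91), Cd63 (0.91), Anpep (0.90), Mcoln1 (0.89), Arl11 (0.88) and AI413582 (0.88). Mfge8 encodes a secreted protein that bridges dying cells to phagocytes, Hgf the growth factor itself, Cd63 a tetraspanin of late endosomes and Anpep the surface peptidase CD13. Mcoln1, the lysosomal calcium channel, is a member of the list. Among the other members r was 0.85 for Gla, 0.81 for Hexa and 0.78 for Ctsa, close to 0 for Grn (-0.07) and negative for Ctsl (-0.54). Groups share origins and times, so these values describe the 16 means and carry no test.

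**Figure D2:**
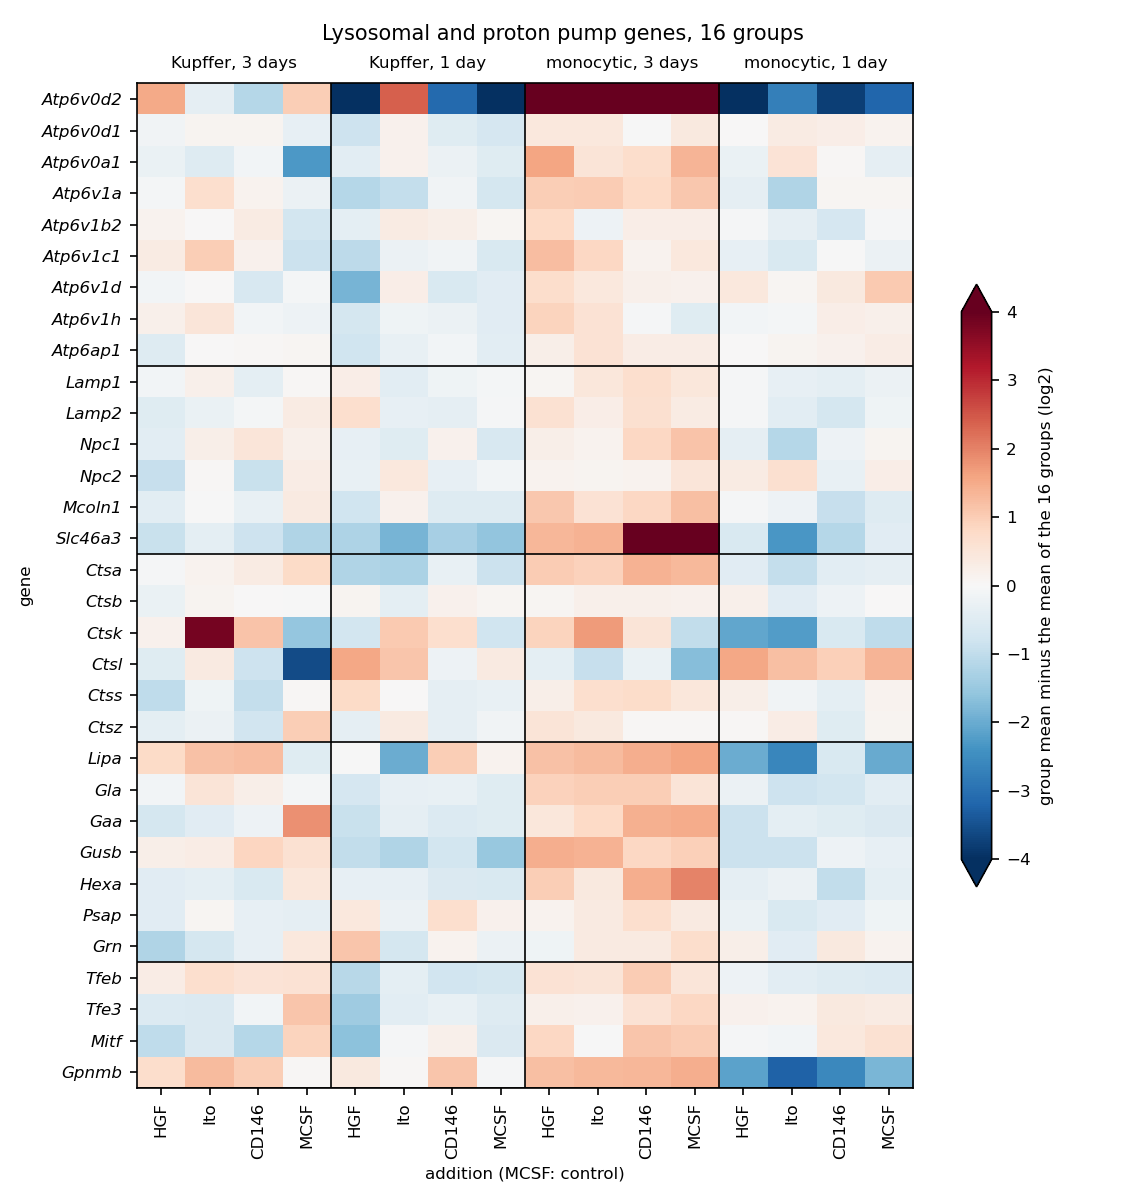
Group means of the 32 measured genes (rows, by role) in the 16 groups (columns), each as the log2 difference from the gene's mean over the 16 groups, with the colour scale ending at 4 in either direction. Atp6v0d2 is high in monocytic macrophages of 3 days. Slc46a3, Lipa and Gpnmb are highest in the monocytic control of 3 days, and Ctsl is highest in Kupffer cells with HGF for 1 day. Ctsk is highest in Kupffer cells with Ito cells for 3 days, where Lipa and Ctsl are high too.

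Most of the list differed between the controls of 3 days and of 1 day. In the monocytic control 18 of 32 genes rose and 2 fell between 3 days and 1 day, 62.5% of the list, against 29.3% of all genes (19.5% higher and 9.82% lower). In the Kupffer control 12 rose and 5 fell, 53.1% of the list, against 31.8% of all genes (21.5% higher and 10.2% lower). The median of the 32 differences, before subtraction of the median of all genes, was 0.60 against 0.13 in the monocytic control and 0.39 against 0.15 in the Kupffer control. Among the 8 measured genes with CACGTG shown above, Ctsa, Mcoln1, Lamp1, Gaa, Atp6v1a and Gla rose in the monocytic control, Ctsl fell, and Atp6v0d1 differed by 0.27 before subtraction without passing. The calls of Lamp1 and Gla were lost under centring (adjusted p of 0.12 and 0.0665). In the Kupffer control Ctsa, Gaa and Atp6v1a rose, Ctsl fell, and Mcoln1, Lamp1, Gla and Atp6v0d1 did not pass. The Atp6v1a call was lost under quantile normalization (-0.01 before subtraction, adjusted p = 0.982) and under centring (adjusted p = 0.0635). Whether genes with CACGTG differed from the other members was not tested.

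Of the pump genes, Atp6v0a1, which encodes a proton-channel subunit of V0, moved in opposite directions with time. Its Kupffer control arrays read 12.18, 12.18 and 12.08 after 3 days, against 13.67, 14.25 and 13.98 after 1 day, and it fell by 1.97 ± 0.20 (adjusted p = 1.28e-09). In the monocytic control it read 15.85, 15.82 and 15.72 after 3 days, against 14.15, 14.04 and 14.08 after 1 day, and it rose by 1.58 ± 0.20. Whether these time courses differ was not tested. Atp6v1b2, a V1 subunit of the ATP-binding ring, fell by 0.94 ± 0.21 in the Kupffer control (adjusted p of 0.0971 with the compared arrays alone), and Atp6v1a, the catalytic V1 subunit, rose by 0.85 ± 0.17 in the monocytic one. Smaller calls in the monocytic control for Atp6v1c1 (0.51) and Atp6v1h (-0.81) and in the Kupffer control for Atp6v1a (0.33) were each lost when 1 of several arrays was left out, with adjusted p up to 0.0950, 0.281 and 0.136.

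Slc46a3, a lysosomal transporter of the folate carrier family, rose with time in monocytic macrophages. The monocytic control gave 13.72, 13.52 and 11.74 after 3 days, against 6.86, 6.64 and 6.40 after 1 day, a difference of 6.23 ± 0.38 (adjusted p = 1.41e-16), which before subtraction was 6.36, or 6.99 without replicate 3 of 3 days. The Kupffer control stayed close to background at both times, with 5.88, 5.83 and 6.02 after 3 days, against 4.57, 5.95 and 6.06 after 1 day. In the monocytic control the other membrane genes rose less: Mcoln1 by 1.58 ± 0.37, Npc1, the cholesterol exporter of the lysosomal membrane, by 0.91 ± 0.29, and Lamp1, an abundant glycoprotein of that membrane, by 0.56 ± 0.17. Lamp2 rose by 0.37 ± 0.17, lost without any of 4 of the arrays (adjusted p up to 0.105). Npc1 also rose in the Kupffer control, by 0.69 ± 0.29, lost without any of 4 of the arrays (adjusted p up to 0.203).

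Of 6 measured cathepsins and carboxypeptidases 2 rose and 2 fell in the Kupffer control, and 1 rose and 1 fell in the monocytic control. Ctsl, an endopeptidase of the papain family, fell in both. In the Kupffer control it gave 14.52, 13.61 and 13.61 after 3 days, against 17.00, 17.88 and 18.66 after 1 day, and in the monocytic control 15.34, 15.51 and 16.51 after 3 days, against 18.81, 18.95 and 18.78 after 1 day. It fell by 4.08 ± 0.28 in Kupffer cells (adjusted p = 8.29e-15) and by 3.19 ± 0.28 in monocytic macrophages (adjusted p = 1.5e-11). Ctsa, the carboxypeptidase that protects lysosomal sialidase and galactosidase, rose in both, by 1.46 ± 0.24 in Kupffer cells and by 1.52 ± 0.24 in monocytic macrophages. Ctsz, another carboxypeptidase, rose in the Kupffer control by 0.99 ± 0.24. Ctsk, the collagen-cutting cathepsin, fell there by 0.90 ± 0.30, a call lost without any of 4 of the arrays (adjusted p up to 0.329). Since replicates 2 and 3 of 3 days lay near the negative controls for Ctsk, this size is uncertain and may be understated.

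Of the 7 other measured hydrolases and activators 4 rose and 1 fell in the Kupffer control, and 6 rose and 0 fell in the monocytic control, by limma. Gaa, the glycogen-cutting acid glucosidase, gave 14.28, 14.43 and 14.47 in the Kupffer control after 3 days, against 11.89, 12.18 and 12.16 after 1 day, and rose by 2.17 ± 0.24, and by 1.93 ± 0.24 in the monocytic control. Gusb, a glucuronidase, gave 14.14, 13.92 and 14.19 in the Kupffer control after 3 days, against 11.39, 12.42 and 12.07 after 1 day, and rose by 1.98 ± 0.22, and by 1.16 ± 0.22 in the monocytic control. Hexa, a subunit of the hexosaminidase that degrades gangliosides, rose by 0.94 ± 0.24 in the Kupffer control and by 2.27 ± 0.24 in the monocytic control, and Gla, a galactosidase, by 0.79 ± 0.25 in the monocytic control. Lipa gave 18.35, 18.42 and 17.95 in the monocytic control after 3 days, against 14.68, 14.56 and 14.68 after 1 day, and rose by 3.46 ± 0.29 (adjusted p = 7.78e-13). Its Kupffer control arrays overlapped between the times. Psap, the precursor of the sphingolipid activators, fell by 0.66 ± 0.17 in the Kupffer control and rose by 0.39 ± 0.17 in the monocytic one, and Grn, which encodes progranulin, rose by 0.49 ± 0.24 in the Kupffer control. Each of the last 3 calls was lost without 1 of 3 or 4 arrays, with adjusted p up to 0.150, 0.151 and 0.123.

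Of the transcription factor genes, Mitf gave 12.05, 11.99 and 11.97 in the Kupffer control after 3 days, against 10.79, 10.24 and 10.62 after 1 day, and rose by 1.31 ± 0.23, and Tfe3 rose there by 1.48 ± 0.43. Neither passed in the monocytic control. Tfeb rose in both, by 1.13 ± 0.25 in Kupffer cells and by 0.89 ± 0.25 in monocytic macrophages. Since its 1-day mean lay below the negative controls, both sizes are uncertain and may be understated. Gpnmb, a lysosomal glycoprotein known as a target of MITF and TFE3, gave 19.48, 19.47 and 19.29 in the monocytic control after 3 days, against 16.19, 16.02 and 16.20 after 1 day, and rose by 3.14 ± 0.25 (adjusted p = 2.77e-13), with its 3-day level close to the highest signal. Markers of other cells differed between the times as well. In the Kupffer control the mean of 13 sinusoidal endothelial genes was 5.71 after 3 days, against 9.28 after 1 day, that of 12 hepatocyte genes was 4.63, against 7.41, and that of 12 core macrophage genes was 15.71, against 14.19. In the monocytic control that of 8 monocyte genes was 9.31 after 3 days, against 11.62 after 1 day, that of 13 Kupffer cell genes was 9.52, against 7.21, and that of 14 Ito cell genes was 6.31, against 4.66. Their part in the result was not tested.

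**Figure D3:**
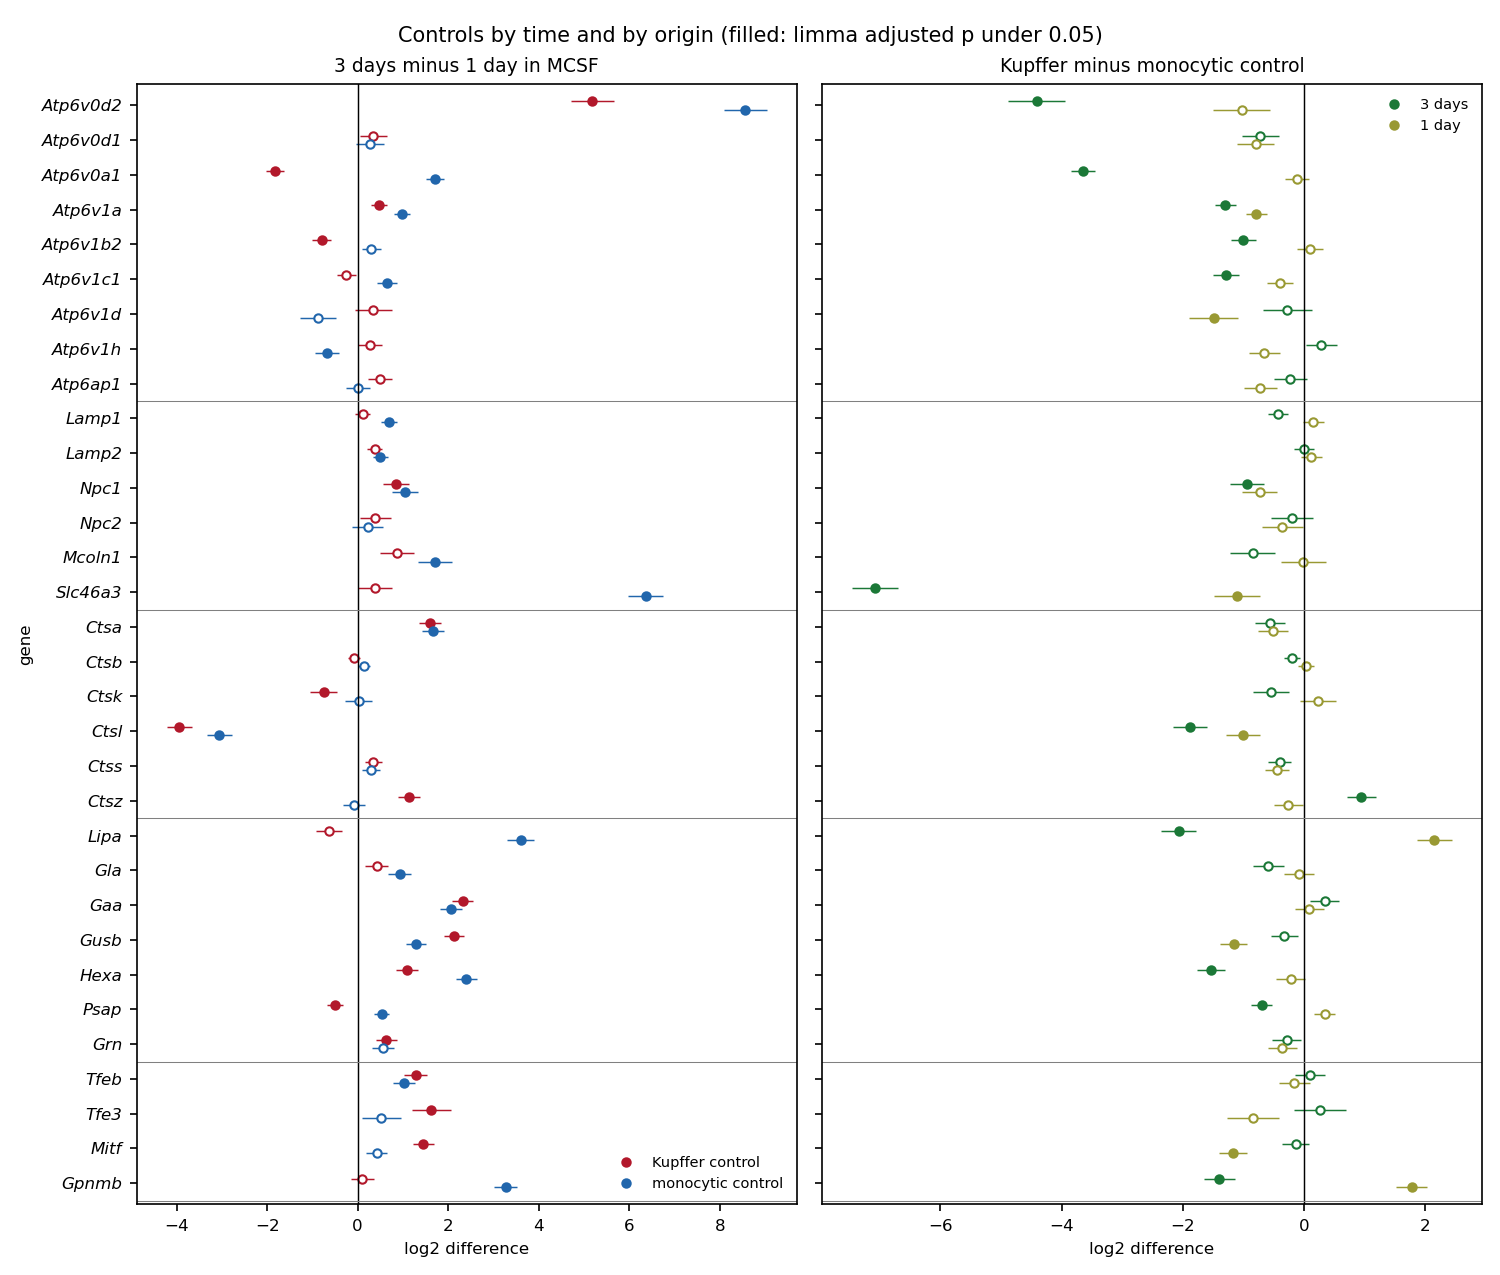
Log2 difference ± limma SE of the 32 genes between the MCSF controls, as 3 days minus 1 day (left, Kupffer in red and monocytic in blue) and as Kupffer minus monocytic (right, 3 days in green and 1 day in olive), without subtraction of the median of all genes. Filled points have an adjusted p under 0.05. Atp6v0d2 is right of 0 for both origins and Ctsl left of 0 for both, while Atp6v0a1 lies on opposite sides.

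Between the controls of 3 days, Kupffer cells were lower than monocytic macrophages for 12 of the 32 genes and higher for 1, 40.6% of the list, against 12.1% of all genes (6.38% higher and 5.7% lower). After 1 day 6 were lower and 2 higher, 25% of the list, against 21.3% of all genes (9.73% higher and 11.6% lower). Centring each array on its median moved the 1-day counts to 15 lower and 2 higher. The median of the 32 differences was -0.55 after 3 days and -0.36 after 1 day, against -0.02 and -0.07 over all genes. The 3-day comparison shares the monocytic control replicate 3, which stood apart, with the comparison by time.

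After 3 days 5 of the 9 pump genes were lower in Kupffer cells. Beside Atp6v0d2 they were Atp6v0a1 at -3.65 ± 0.20 (adjusted p = 8.15e-18), with the array values given above for both controls, Atp6v1a at -1.30 ± 0.17, Atp6v1c1, which links V1 to V0, at -1.29 ± 0.22 and Atp6v1b2 at -1.0 ± 0.21. Slc46a3 gave 5.88, 5.83 and 6.02 in the Kupffer control, against 13.72, 13.52 and 11.74 in the monocytic control, a difference of -7.08 ± 0.38, or -7.71 without monocytic replicate 3. Ctsl (-1.88 ± 0.28), Lipa (-2.07 ± 0.29), Hexa (-1.53 ± 0.24) and Gpnmb (-1.39 ± 0.25) were lower in Kupffer cells, and Ctsz was higher, at 0.95 ± 0.24. Npc1 (-0.94) and Psap (-0.69) were lower too, but lost their calls without any of 4 arrays (adjusted p up to 0.135) and without either of 2 arrays (adjusted p up to 0.0634).

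After 1 day the order was turned for Lipa and Gpnmb. Lipa gave 17.84, 16.66 and 15.89 in the Kupffer control, against 14.68, 14.56 and 14.68 in the monocytic control, and was higher in Kupffer cells by 2.16 ± 0.29 (adjusted p = 5.63e-07). Gpnmb gave 19.04, 17.69 and 17.02 in the Kupffer control, against 16.19, 16.02 and 16.20, and was higher by 1.78 ± 0.25 (adjusted p = 1.82e-06). The 3 Kupffer arrays were spread widely for both genes, and replicate 1, which stood apart, was the highest. Without the 3 arrays that stood apart the differences were 1.63 for Lipa and 1.22 for Gpnmb, both still called, and with the compared arrays alone Gpnmb was lost (adjusted p = 0.0736). Sinusoidal endothelial genes averaged 9.28 in the Kupffer control, against 5.80 in the monocytic control of 1 day, hepatocyte genes 7.41, against 4.81, and cholangiocyte genes 6.89, against 3.39. Their part in the result was not tested. Atp6v1a (-0.79 ± 0.17), Gusb (-1.16 ± 0.22) and Mitf (-1.17 ± 0.23) were lower in Kupffer cells after 1 day, and with the compared arrays alone the adjusted p was 0.075 for Atp6v1a and 0.0649 for Gusb. Atp6v1d, a V1 stalk subunit, at -1.49 and Ctsl at -1.0 were lower too, each losing its call without 1 array (adjusted p of 0.120 and 0.170), and so was Slc46a3 at -1.11, lost without any of 3 arrays (adjusted p up to 0.315).

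The additions changed the list most in Kupffer cells after 3 days. HGF raised 7 genes and lowered 10, 53.1% of the list, against 27.6% of all genes (14.5% higher and 13.1% lower). Ito cells raised 9 and lowered 8, 53.1% again, against 26.8% of all genes (14.5% higher and 12.3% lower). CD146 cells raised 7 and lowered 9, 50% of the list, against 26.4% of all genes (14% higher and 12.4% lower). The 3 comparisons share the Kupffer control of 3 days, so the values of each are given side by side and a likeness between them is not a result. Centring each array on its median gave 6 raised and 13 lowered with HGF, and with Ito cells quantile normalization gave 11 raised and 7 lowered.

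Ctsk and Ctsl rose with each addition. For Ctsk Kupffer cells gave 8.16, 7.45 and 7.81 with HGF, 11.91, 10.77 and 11.72 with Ito cells and 9.31, 8.85 and 8.19 with CD146 cells, against 7.02, 5.50 and 5.79 in the control. It rose by 1.71 ± 0.30 with HGF, by 5.25 ± 0.30 with Ito cells (adjusted p = 4.58e-18) and by 2.68 ± 0.30 with CD146 cells. The negative controls averaged 5.81 on control replicate 2 and 5.69 on replicate 3, close to Ctsk there, so these sizes are uncertain and may be understated. For Ctsl the arrays gave 17.02, 16.86 and 17.11 with HGF, 17.88, 17.90 and 17.76 with Ito cells and 16.57, 16.62 and 16.85 with CD146 cells, against 14.52, 13.61 and 13.61 in the control. It rose by 3.09 ± 0.28, by 3.82 ± 0.28 and by 2.77 ± 0.28 in that order, with adjusted p of 5.92e-12, 7.7e-15 and 9.32e-11. No array of an addition overlapped the control for either gene.

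Lipa gave 17.19, 17.51 and 17.62 with HGF, 17.85, 17.85 and 17.86 with Ito cells and 17.88, 17.92 and 17.88 with CD146 cells, against 16.54, 15.96 and 16.01 in the control, and rose with each addition, by 1.26, 1.56 and 1.72 (± 0.29 each). Gpnmb rose by 0.66, 1.11 and 0.94 (± 0.25 each), of which the HGF call was lost without any of 5 arrays (adjusted p up to 0.193). Of the pump genes, Atp6v0a1 gave 14.19, 13.86 and 14.43 with HGF, 13.83, 14.14 and 13.77 with Ito cells and 14.20, 14.40 and 14.38 with CD146 cells, against 12.18, 12.18 and 12.08 in the control. It rose by 2.01, 1.66 and 2.18 (± 0.20 each, adjusted p of 7.53e-11, 2.24e-09 and 8.62e-12). Atp6v1c1 rose with each addition as well, by 1.18, 1.74 and 1.04 (± 0.22 each), and Atp6v1b2 by 0.87, 0.62 and 1.07 (± 0.21 each), where the Ito call was lost without either of 2 arrays (adjusted p up to 0.0755) and the HGF call with the compared arrays alone (adjusted p = 0.0574). Atp6v1a rose with Ito cells by 0.78 ± 0.17, and Atp6v1h, a regulatory V1 subunit, by 0.57 ± 0.26, lost without any of 5 arrays (adjusted p up to 0.237).

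Gaa and Mitf fell with each addition. Gaa gave 12.27, 11.38 and 11.94 with HGF, 12.50, 11.81 and 12.03 with Ito cells and 12.29, 12.61 and 12.25 with CD146 cells, against 14.28, 14.43 and 14.47 in the control. It fell by 2.53, 2.39 and 2.01 (± 0.24 each, adjusted p of 1.79e-11, 3.32e-10 and 5.09e-09). Mitf gave 10.43, 9.84 and 10.05 with HGF, 10.66, 10.38 and 10.53 with Ito cells and 10.19, 9.95 and 9.80 with CD146 cells, against 12.05, 11.99 and 11.97 in the control, and fell by 1.90, 1.59 and 2.02 (± 0.23 each). Every array with an addition lay below every control array for both genes.

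Tfe3 fell by 1.65, 1.80 and 1.21 (± 0.43 each), and the CD146 call was lost without any of 5 arrays (adjusted p up to 0.154). Tfeb passed with none of the 3 additions, at -0.28, -0.01 and -0.03 (± 0.25 each). Ctsz fell by 1.38, 1.33 and 1.75 (± 0.24 each), Hexa by 0.92, 0.96 and 1.06 (± 0.24 each) and Grn by 1.61, 1.22 and 0.74 (± 0.24 each), where the CD146 call of Grn was lost without either of 2 arrays (adjusted p up to 0.0940). Ctss, an endopeptidase known from antigen processing, fell with HGF by 1.07 ± 0.19 and with CD146 cells by 1.01 ± 0.19. Npc2, the soluble cholesterol carrier of the lysosome, fell with HGF by 1.22 ± 0.35 and with CD146 cells by 1.17 ± 0.35, the second lost without 1 array (adjusted p = 0.0524). Lamp2 fell with HGF by 0.83 ± 0.17 and with Ito cells by 0.71 ± 0.17, the second again lost without 1 array (adjusted p = 0.0555), and Ctsa fell with HGF by 0.81 ± 0.24, lost without either of 2 (adjusted p up to 0.0663).

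Other genes moved beside these. The mean of 11 cell cycle genes was 12.60 with HGF, 12.23 with Ito cells and 12.81 with CD146 cells, against 7.17 in the Kupffer control of 3 days. Core macrophage genes averaged 13.61, 13.77 and 13.70 with the additions, against 15.71 ± 0.13 (SD) in the control, and 8 monocyte genes averaged 12.85, 12.80 and 12.56, against 10.57. The 13 Kupffer cell genes averaged 9.49, 8.29 and 7.38, against 9.23. Of 6 cholangiocyte genes 5 were above the negative controls with HGF, 4 with Ito cells and 5 with CD146 cells, against 0 in the control, and their means were 9.05, 6.81 and 7.76, against 3.57. Neutrophil genes averaged 7.26, 9.78 and 6.58, against 5.72. Of the added cell types, the 14 Ito cell genes averaged 6.76, 6.15 and 6.78, against 6.64, and the sinusoidal endothelial genes 7.09, 6.43 and 5.96, against 5.71. The part of these differences in the results was not tested.

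**Figure D4:**
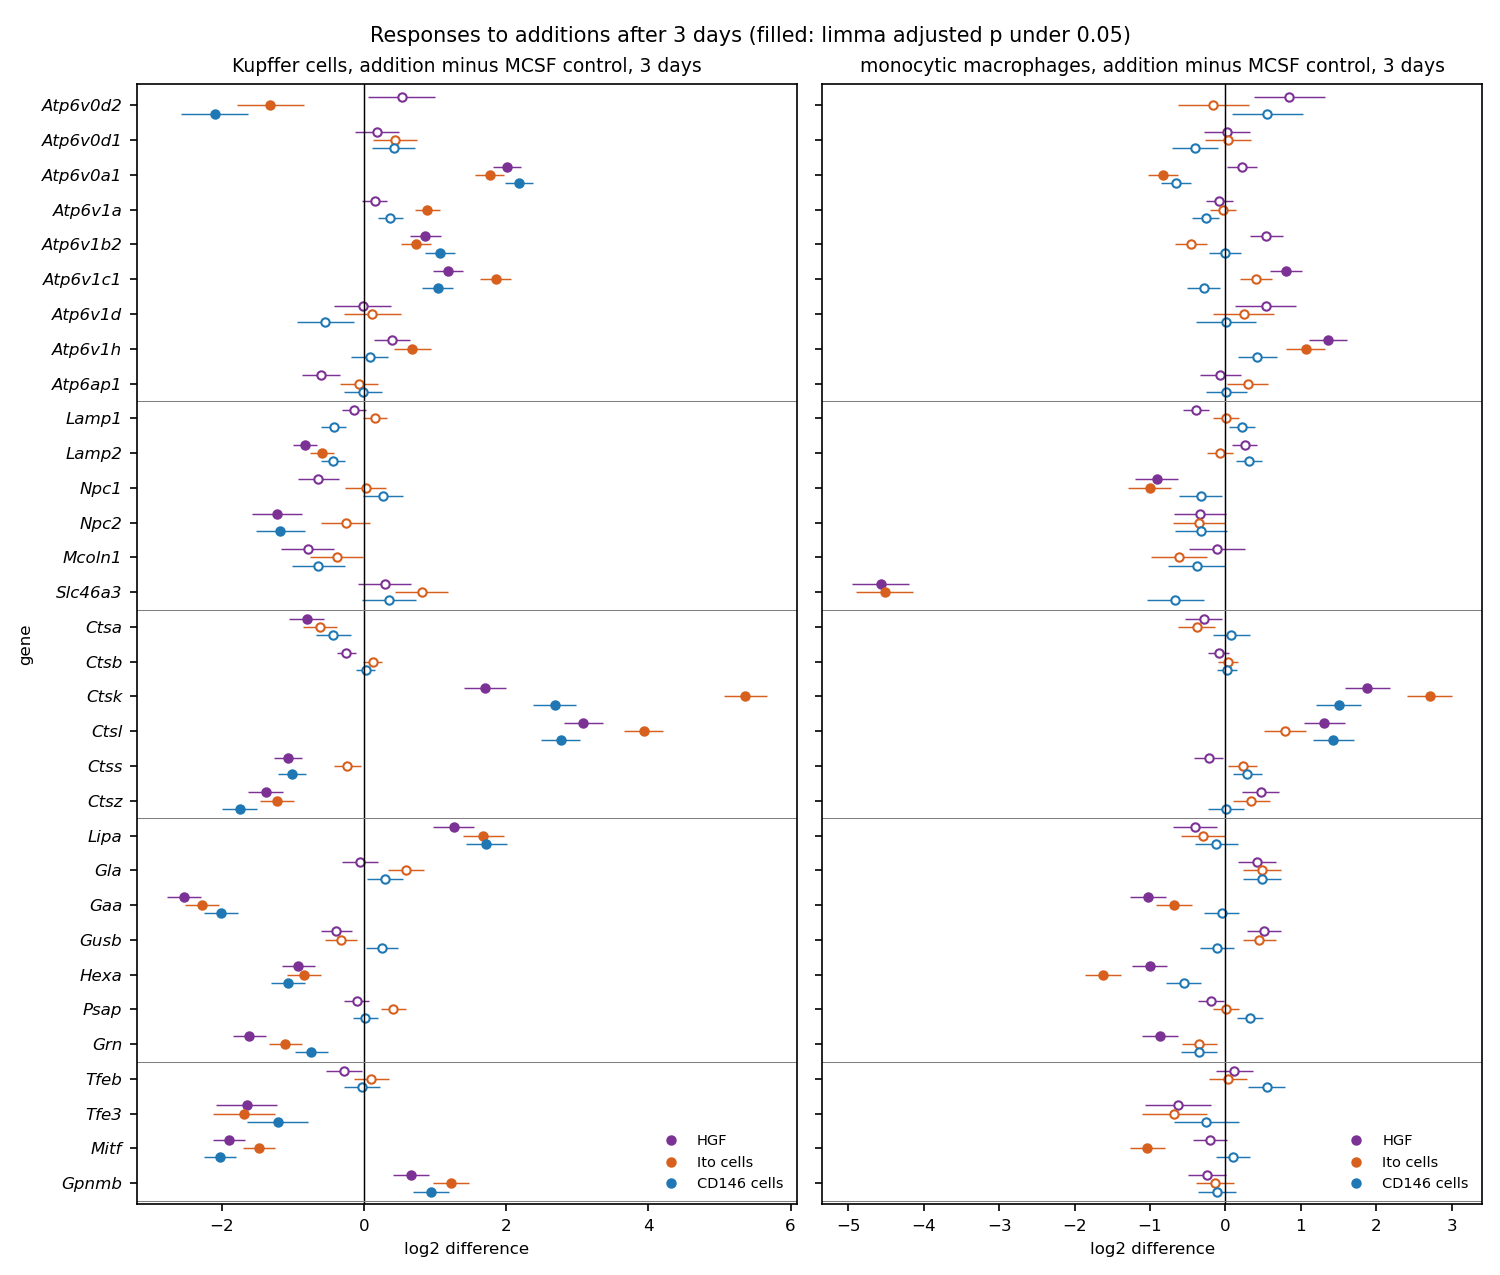
Log2 difference ± limma SE from the MCSF control after 3 days for the 32 genes in Kupffer cells (left) and monocytic macrophages (right) with HGF, Ito cells or CD146 cells, without subtraction of the median of all genes. Filled points have an adjusted p under 0.05. In Kupffer cells Ctsk, Ctsl and Atp6v0a1 lie right of 0 and Gaa and Mitf left of 0 for all 3 additions, and in monocytic macrophages Slc46a3 lies far left of 0 with HGF and with Ito cells.

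After 1 day fewer members were called in Kupffer cells. Ito cells raised 5 and lowered 2, 21.9% of the list, against 23.5% of all genes (5.47% higher and 18% lower), HGF raised 4 and lowered 2, 18.8%, against 17.5% (4.13% higher and 13.4% lower), and CD146 cells raised 4 and lowered 0, 12.5%, against 3.78% (1.32% higher and 2.46% lower). These splits depended on scaling: with Ito cells quantile normalization gave 3 raised and 4 lowered and centring 16 raised and 1 lowered, and with HGF quantile normalization gave 1 raised and centring 6 raised and 2 lowered. The Kupffer control of 1 day holds the replicate that stood apart, and sinusoidal endothelial genes averaged 9.0 with HGF, 6.93 with Ito cells and 6.94 with CD146 cells, against 9.28 ± 1.05 (SD) in that control. The 13 Kupffer cell genes averaged 8.85, 6.94 and 8.25, against 9.16, the 10 neutrophil genes 6.71, 9.94 and 9.66, against 7.61, and the 8 monocyte genes 11.41, 13.0 and 12.88, against 11.49. Their part in the results was not tested.

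Beside Atp6v0d2, Ctsk and Lipa kept their calls with Ito cells after 1 day whichever array was left out. Ctsk gave 8.61, 8.83 and 8.62 with Ito cells, against 6.48, 7.19 and 6.89 in the control, and rose by 2.08 ± 0.30 (adjusted p = 1.54e-05). Lipa gave 14.83, 14.72 and 14.51 with Ito cells, against 17.84, 16.66 and 15.89, and fell by 1.87 ± 0.29 (adjusted p = 8.86e-07), the opposite direction to 3 days. Calls of Atp6v0a1 (0.88, adjusted p up to 0.127 without 1 array), Ctsl (1.00, up to 0.445) and Ctsb, an abundant cathepsin (-0.20, up to 0.0534) did not hold in that way.

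With CD146 cells for 1 day Ctsk gave 8.14, 8.51 and 8.33, against the same control, and rose by 1.48 ± 0.30 (adjusted p = 0.00121, or 0.0714 with the compared arrays alone). Gpnmb gave 18.97, 19.20 and 19.09 with CD146 cells, against 19.04, 17.69 and 17.02, and was higher by 1.17 ± 0.25, though the arrays overlapped and the call was lost without 1 of them (0.72, adjusted p = 0.0874). Gusb (0.78) and Mitf (0.76) were each lost without any of 5 arrays, with adjusted p up to 0.301 and 0.225. With HGF for 1 day Grn gave 18.47, 19.03 and 18.59, against 17.19, 17.52 and 17.34 in the control, and rose by 1.52 ± 0.24 (adjusted p = 0.000277). Ctss rose by 1.23 ± 0.19, Ctsl by 1.36 ± 0.28 and Lamp2 by 0.87 ± 0.17, and Mitf fell by 0.89 ± 0.23. All 5 calls were lost under quantile normalization, where the unshifted differences were 0.48 for Grn, 0.17 for Ctss, 0.42 for Ctsl, -0.07 for Lamp2 and -0.59 for Mitf (adjusted p of 0.0569 to 0.82). They were also lost with the compared arrays alone (adjusted p of 0.547 for each), and Mitf was lost without the 3 arrays that stood apart (-0.67, adjusted p = 0.0769). Atp6v1d at -1.24 ± 0.40 lost its call without either of 2 arrays (adjusted p up to 0.338) and was -2.20 before subtraction without HGF replicate 1.

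**Figure D5:**
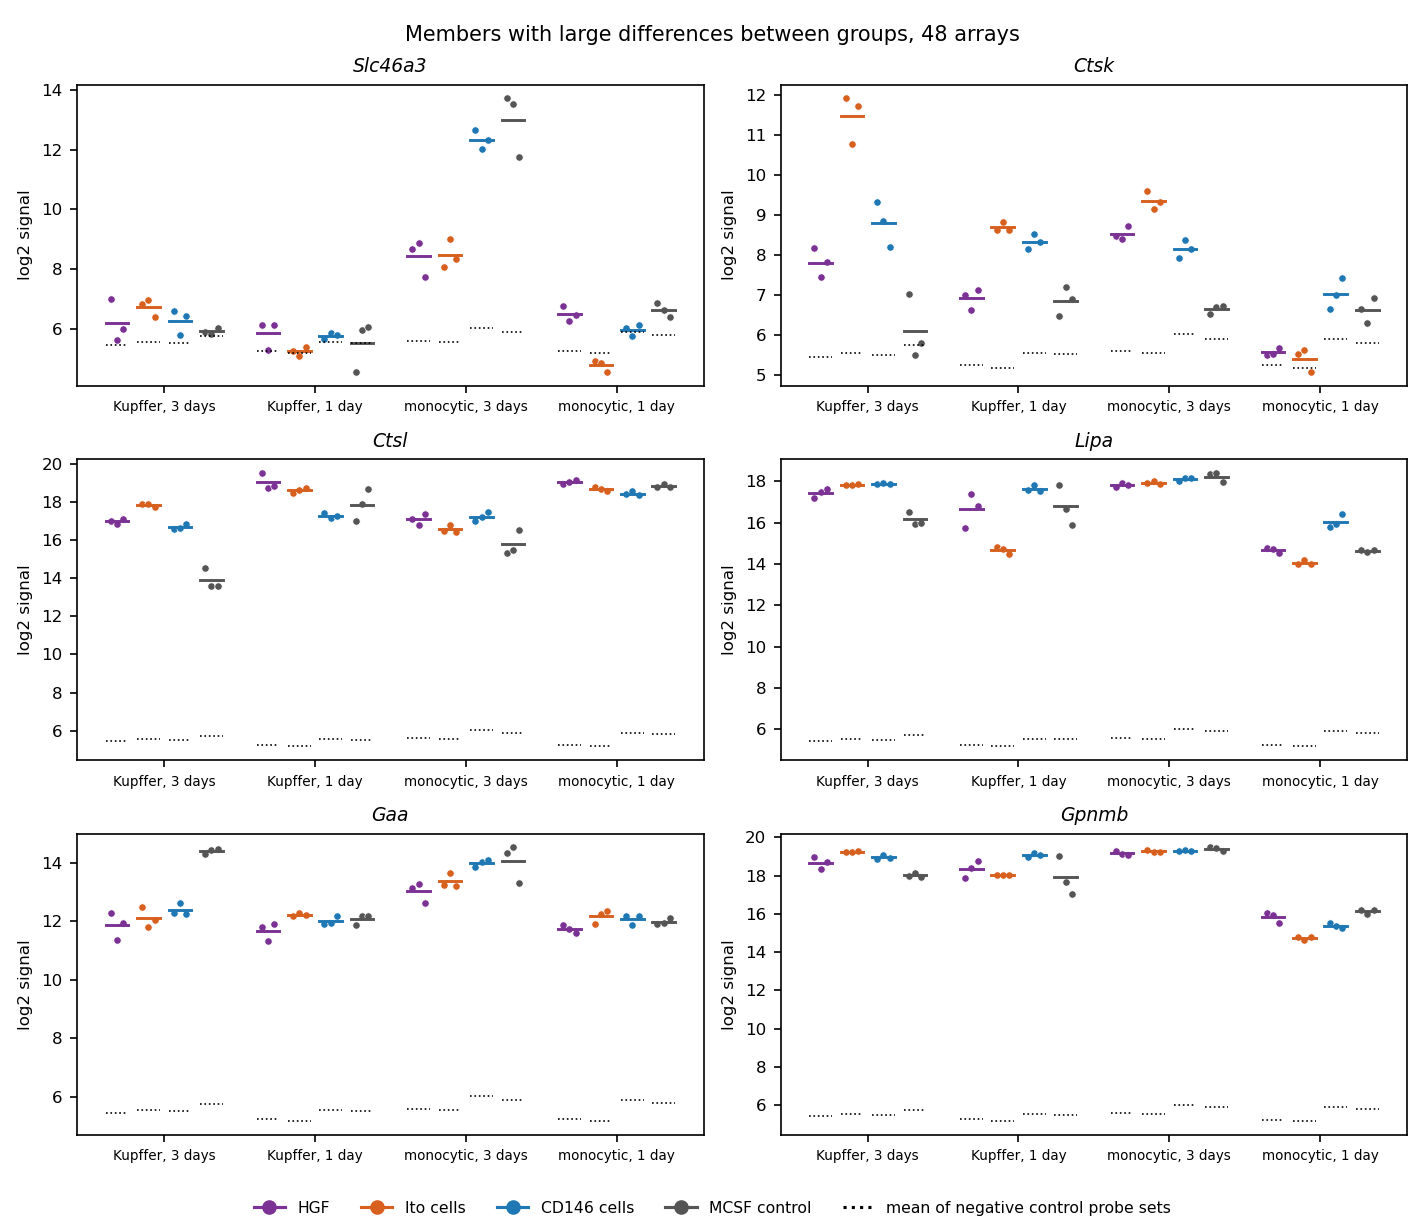
Log2 signal of Slc46a3, Ctsk, Ctsl, Lipa, Gaa and Gpnmb on each array (points) with group means (bars) in the 16 groups, ordered as 3 days and then 1 day within each origin. Ctsl of the Kupffer control of 3 days lies between 13.61 and 14.52, and Ctsk of Kupffer cells with Ito cells for 3 days lies between 10.77 and 11.91.

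In monocytic macrophages of 3 days HGF raised 4 genes and lowered 5, 28.1% of the list, against 13% of all genes (7.56% higher and 5.46% lower). Ito cells raised 2 and lowered 6, 25%, against 12.5% (5.8% higher and 6.66% lower), and CD146 cells raised 2 and lowered 0, 6.25%, against 2.4% (1.22% higher and 1.18% lower). All 3 share 1 control, including its replicate 3. Centring gave 2 raised and 1 lowered with CD146 cells. Without the 3 arrays that stood apart, Ito cells raised 4 and lowered 9 and CD146 cells changed 4 in all.

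Slc46a3 gave 8.66, 8.86 and 7.75 with HGF, 8.07, 9.02 and 8.34 with Ito cells and 12.67, 12 and 12.31 with CD146 cells, against 13.72, 13.52 and 11.74 in the monocytic control of 3 days. HGF and Ito cells left it below every control array, at -4.57 ± 0.38 (adjusted p = 1.23e-11) and -4.52 ± 0.38 (adjusted p = 1.65e-11), or -5.20 and -5.14 without control replicate 3. The arrays with CD146 cells overlapped the control, at -0.66 ± 0.38. Npc1 was lower with HGF (-0.91) and with Ito cells (-1.01), each lost without any of 3 arrays (adjusted p up to 0.223 and 0.110).

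Ctsk gave 8.46, 8.40 and 8.73 with HGF, 9.58, 9.15 and 9.33 with Ito cells and 7.93, 8.38 and 8.15 with CD146 cells, against 6.52, 6.69 and 6.74 in the control. It rose by 1.88 ± 0.30, by 2.71 ± 0.30 (adjusted p = 1.21e-08) and by 1.5 ± 0.30, and the groups did not overlap. Ctsl rose with HGF by 1.31 ± 0.28 and with CD146 cells by 1.43 ± 0.28, and with Ito cells it was at 0.79 ± 0.28 without passing. Hexa gave 15.82, 15.85 and 15.99 with HGF and 15.10, 15.14 and 15.57 with Ito cells, against 17.16, 17.38 and 16.14, and was lower with HGF, at -1.01 ± 0.24, lost without 1 array (adjusted p = 0.0581), and fell with Ito cells by 1.62 ± 0.24 (adjusted p = 3.89e-06). Gaa fell with HGF by 1.03 ± 0.24, and its Ito difference of -0.69 was lost without any of 4 arrays (adjusted p up to 0.391). Grn at -0.87 with HGF was lost without either of 2 (adjusted p up to 0.229). Mitf fell with Ito cells by 1.03 ± 0.23. With the compared arrays alone the calls of Gaa with HGF (adjusted p = 0.107), of Mitf with Ito cells (0.0599) and of Ctsl with CD146 cells (0.0785) were lost.

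Of the pump genes Atp6v1h rose with HGF by 1.36 ± 0.26 (adjusted p = 0.000228) and with Ito cells by 1.06 ± 0.26, and Atp6v0a1 fell with Ito cells by 0.83 ± 0.20, lost with the compared arrays alone (adjusted p = 0.0667). Atp6v1c1 at 0.80 with HGF was lost without either of 2 arrays (adjusted p up to 0.0701). Cell cycle genes averaged 10.95 with HGF, 11.63 with Ito cells and 7.19 with CD146 cells, against 8.61 ± 2.81 (SD) in the control, while core macrophage genes averaged 14.74, 14.82 and 15.03, against 15.15. The 14 Ito cell genes averaged 4.54, 4.67 and 5.12, against 6.31, and sinusoidal endothelial genes 5.95, 5.79 and 6.07, against 5.89. The part of these differences in the results was not tested.

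After 1 day in monocytic macrophages Ito cells lowered 7 genes and raised 1, 25% of the list, against 15.5% of all genes (1.91% higher and 13.6% lower). Slc46a3 gave 4.91, 4.85 and 4.56 with Ito cells, against 6.86, 6.64 and 6.40 in the control, and fell by 1.58 ± 0.38 relative to the median. Its Ito arrays lay under the negative controls, so this size is uncertain and may be understated. Gpnmb gave 14.77, 14.64 and 14.81, against 16.19, 16.02 and 16.20, and fell by 1.12 ± 0.25. Atp6v1a fell by 1.01 ± 0.17, Npc1 by 0.95 ± 0.29 and Ctsk by 0.93 ± 0.30, while Atp6v0a1 rose by 1.18 ± 0.20. Ctsb at -0.19 and Mitf at -0.42 passed too, and Mitf was lost without any of 4 arrays (adjusted p up to 0.201).

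HGF for 1 day lowered 4 genes in monocytic macrophages and raised 0, 12.5% of the list, against 37.5% of all genes (0.22% higher and 37.2% lower), by limma. With the median of all genes at -0.55, these calls depended on scaling: quantile normalization gave 0 (1 at an unadjusted p under 0.05), and centring gave 5 raised and 0 lowered. Ctsk, at -0.51 ± 0.30 relative to the median, was the call that held without any 1 array, and Atp6v1a stood at 0.11 relative to the median while its unshifted difference was called lower. CD146 cells for 1 day raised 1 and lowered 0, 3.12% of the list, against 2.33% of all genes (1% higher and 1.33% lower). That gene was Lipa, which gave 15.82, 15.93 and 16.41 with CD146 cells, against 14.68, 14.56 and 14.68, and rose by 1.41 ± 0.29 (adjusted p = 0.00232). Centring gave 1 raised and 1 lowered.

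Whether Kupffer and monocytic responses differed was tested directly, as the Kupffer response minus the monocytic response. For CD146 cells over 3 days 7 genes had a higher and 6 a lower response in Kupffer cells, 40.6% of the list, against 18.2% of all genes. For Ito cells these were 9 and 2, 34.4%, against 8.75%, and for HGF 4 and 6, 31.2%, against 15.2%. After 1 day the counts were 6 and 1 for Ito cells (21.9%, against 3.74%), 4 and 0 for HGF (12.5%, against 23.1%) and 1 and 0 for CD146 cells (3.12%, against 0.877%). The median of all genes in the HGF test of 1 day was 0.36, and quantile normalization left 1 of its 4 calls and centring 0 higher and 1 lower. In the HGF test of 3 days centring gave 4 higher and 8 lower.

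Atp6v0a1 differed for all 3 additions of 3 days, by 1.79, 2.60 and 2.83 (± 0.28 each) for HGF, Ito cells and CD146 cells. Slc46a3 differed for HGF by 4.86 ± 0.53 and for Ito cells by 5.33 ± 0.53, or by 5.49 and 5.95 without monocytic control replicate 3. Its Kupffer control of 3 days averaged 5.91, against 5.75 for the negative controls, so a fall as large as the monocytic ones could not have been measured there. The monocytic differences of -4.57 and -4.52 make up most of these values. Lipa differed by 1.67, 1.97 and 1.84 (± 0.41 each) and Ctsl by 1.77, 3.15 and 1.34 (± 0.39 each), the last lost without 1 array (adjusted p = 0.0825). Lower responses in Kupffer cells were found for Ctsz (-1.85, -1.56 and -1.76, ± 0.34 each) and Gaa (-1.51, -1.59 and -1.96, ± 0.34 each), and for Mitf with HGF (-1.69 ± 0.32) and CD146 cells (-2.12 ± 0.32). Ctsk differed with Ito cells by 2.66 ± 0.42, and with CD146 cells at 1.18 it was lost without any of 8 arrays (adjusted p up to 0.189). Atp6v0d2 differed for Ito cells of 1 day by 6.14 ± 0.67 (adjusted p = 4.96e-08), or 5.51 without Kupffer control replicate 1, and for CD146 cells of 3 days by -2.66 ± 0.67 (adjusted p = 0.00269), or -1.80 without monocytic control replicate 3. All 11 calls for Ito cells over 3 days held whichever array was left out.

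Other lysosomal genes were followed as lists beside the 32, and counts by time are read against 21.5% of all genes that rose and 10.2% that fell in the Kupffer control, and 19.5% and 9.82% in the monocytic control. In the Kupffer control 25 of 34 other hydrolases rose with time and 2 fell, and in the monocytic control 19 rose and 1 fell. Acp5, the tartrate-resistant phosphatase of osteoclasts, rose in the Kupffer control by 4.36 ± 0.32, and Creg1, a glycoprotein of the endolysosome, by 2.50 ± 0.24 there and by 3.47 ± 0.24 in the monocytic control. Lgmn, the asparagine-cutting legumain, fell in the Kupffer control by 2.50 ± 0.17. Among 25 other membrane proteins 15 rose and 1 fell in the Kupffer control and 15 rose and 2 fell in the monocytic control, led in Kupffer cells by the chloride exchanger gene Clcn7 (3.67 ± 0.24). Quantile normalization gave 9 that rose and 3 that fell in the Kupffer control. Of 19 autophagy genes 10 rose and 0 fell in the Kupffer control, by limma, with Atg9a at 2.90 ± 0.27, and 7 rose and 1 fell in the monocytic control. Of 15 other V-ATPase subunits 7 rose and 0 fell in the Kupffer control, and 5 rose and 2 fell in the monocytic control, or 3 and 2 with either quantile normalization or centring.

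The counts in Kupffer cells with additions for 3 days are read against 13.1%, 12.3% and 12.4% of all genes that fell with HGF, Ito cells and CD146 cells, and 14.5%, 14.5% and 14% that rose. Of the 34 other hydrolases 22 fell and 2 rose with HGF, 18 fell and 3 rose with Ito cells and 21 fell and 3 rose with CD146 cells. Acp5 was at -6.93, -7.98 and -9.64 (± 0.32 each) and Acp2, the lysosomal acid phosphatase, at -4.58, -4.81 and -4.58 (± 0.41 each). Of the 25 membrane proteins 14, 10 and 13 fell and 3, 4 and 2 rose, with Clcn7 at -3.45, -3.46 and -3.66 (± 0.24 each). Centring gave 12 that fell and 2 that rose with Ito cells. Of 19 autophagy genes 10, 9 and 9 fell and 1, 0 and 1 rose, with Atg5, which is needed to form autophagosomes, at -2.44, -2.18 and -3.04 (± 0.25 each). The 15 other pump subunits had 2, 2 and 3 genes that fell, a share near that of all genes, and 0 that rose, with Atp6v1e1 at -2.06, -1.81 and -2.57 (± 0.28 each). With Ito cells quantile normalization gave 3 of the 15 that fell and 1 that rose. Sort1, a sorting receptor for lysosomal enzymes, was at -3.07, -2.10 and -2.87 (± 0.36 each), and Fnip2, a partner of the folliculin complex that controls TFEB and TFE3, at 2.65, 2.83 and 2.59 (± 0.28 each).

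Genes of lipid-associated macrophages moved in both directions. Of 10 measured, 6, 9 and 6 rose and 1, 1 and 3 fell in Kupffer cells with HGF, Ito cells and CD146 cells for 3 days, against the shares of all genes given above. Plin2, which coats lipid droplets, was at 3.68, 4.39 and 3.48 (± 0.22 each), and Apoe, a lipoprotein of macrophages, at -6.92, -6.73 and -10.57 (± 0.31 each). In the control comparison of 3 days 9 of the 10 were lower in Kupffer cells and 0 higher, by limma, against 5.7% and 6.38% of all genes. In monocytic macrophages of 3 days 10 of the 34 other hydrolases fell with HGF and with Ito cells and 0 with CD146 cells, and 1, 0 and 0 rose, against 5.46%, 6.66% and 1.18% of all genes that fell and 7.56%, 5.8% and 1.22% that rose. With CD146 cells limma thus called 0 of the 34, with 7 at an unadjusted p under 0.05, and quantile normalization called 1. Centring gave 8 that fell and 2 that rose with HGF. Of the membrane proteins 11, 8 and 1 fell and 3, 1 and 0 rose. Rragd, a GTPase that brings TFEB to the lysosome, was lower in the Kupffer than in the monocytic control of 3 days, at -4.08 ± 0.33.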

How the data were processed

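RNA of 48 mouse macrophage cultures was measured on Affymetrix arrays after QIAZOL extraction and labelling as biotinylated cRNA, per the labels. The values that the authors deposited are log2 signals of probe sets, made by RMA in the Transcriptome Analysis Console, per the submitters' processing notes. Its version, the genome build and whether all arrays were normalized together are not given in the sources used here. Of 28846 probe sets 6640 are controls, 5222 of them negative, 19572 are listed to 1 gene and 2634 have no listed gene. For 55 genes with several probe sets the brightest was kept, and 19505 genes were tested with no filter.

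Group means were fitted over all 48 arrays, which share 1 estimate of the spread, with limma 3.58.1 in R 4.3.3 with data.table version 1.17.8, default empirical Bayes and two-sided tests, in 22 contrasts, with Benjamini-Hochberg adjustment over all genes per contrast and a threshold of 0.05. The fit was tried on simulated data with independent noise of equal spread in all groups. Those data held no array that stood apart and no shift of the median, so they do not test these limits. Replicate numbers were not used as pairs: same-numbered arrays deviated from their group means with a mean correlation of -0.0103, and in 1 of 120 pairs of groups each of the 3 was over 0.1.

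The members, lists and tests were chosen with earlier results of these data known. Members could all be named, beside the 8 genes most like Atp6v0d2 and up to 4 genes per list and comparison by adjusted p. Alternatives were quantile normalization, centring of each array on its median, leaving out the dimmest 25% of genes, limma's trend and robust options, array weights, a replicate block, the lowest probe set, a 2-fold minimum, the compared arrays alone, each array left out, and, added after seeing the data, leaving out 3 arrays that stood apart. Figures used matplotlib 3.10.9 and pandas 2.3.3 in Python 3.11.15.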

Additional observations from a re-analysis of the deposited data

Results flagged for a closer look

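The values below are for the genes of the list whose Kupffer response minus monocytic response to the same addition passed the test of that difference (limma, adjusted over all genes). All are log2 differences of responses before subtraction of the median of all genes, each from 12 arrays.

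After 3 days with Ito cells the response of Kupffer cells was higher for Slc46a3 by 5.33 (adjusted p = 6.65e-10), Ctsl by 3.15, Ctsk by 2.66, Atp6v0a1 by 2.60, Lipa by 1.97, Atp6v1c1 by 1.45, Gpnmb by 1.36, Atp6v1b2 by 1.19 and Atp6v1a by 0.93, and lower for Gaa at -1.59 and Ctsz at -1.56. Slc46a3 averaged 5.91 in the Kupffer control of 3 days, close to the negative controls at 5.75. A fall as large as that in monocytic macrophages could thus not be measured in Kupffer cells, with Ito cells or with HGF. After 3 days with CD146 cells it was higher for Atp6v0a1 by 2.83 (adjusted p = 2.42e-10), Lipa by 1.84, Ctsl by 1.34, Atp6v1c1 by 1.33, Ctsk by 1.18, Atp6v1b2 by 1.08 and Gpnmb by 1.05, and lower for Atp6v0d2 at -2.66, Mitf at -2.12, Gaa at -1.96, Ctsz at -1.76, Ctss at -1.30 and Lamp2 at -0.74. After 3 days with HGF it was higher for Slc46a3 by 4.86 (adjusted p = 4.51e-09), Atp6v0a1 by 1.79, Ctsl by 1.77 and Lipa by 1.67, and lower for Ctsz at -1.85, Mitf at -1.69, Gaa at -1.51, Lamp2 at -1.09, Gusb at -0.89 and Ctss at -0.84.

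After 1 day with Ito cells the response of Kupffer cells was higher for Atp6v0d2 by 6.14 (adjusted p = 4.96e-08), Ctsk by 3.04, Gpnmb by 1.51, Npc1 by 1.39, Mitf by 1.23 and Atp6v1a by 1.05, and lower for Lipa at -1.54. After 1 day with CD146 cells it was higher for Gpnmb by 1.92 (adjusted p = 0.00177). After 1 day with HGF it was higher for Grn by 1.26 (adjusted p = 0.00584), Ctsk by 1.12, Gusb by 1.02 and Ctss by 0.99, where the median of all genes was 0.36. The Kupffer control of 1 day, which enters all 1-day values, holds replicate 1, which stood apart, and the monocytic control of 3 days, which enters all 3-day values, holds replicate 3.

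Leaving out 1 array ended the following calls. After 3 days with CD146 cells Lamp2 was lost without any of 3 arrays (adjusted p up to 0.101), Gpnmb without any of 9 (up to 0.0738), Ctsk without any of 8 (up to 0.189) and Ctsl without 1 (0.0825). After 3 days with HGF Ctss was lost without any of 5 arrays (adjusted p up to 0.0844) and Gusb without any of 8 (up to 0.177). After 1 day with Ito cells Npc1 was lost without any of 10 arrays (adjusted p up to 0.170), Lipa without any of 4 (up to 0.140) and Mitf without any of 4 (up to 0.0983). After 1 day with HGF Ctsk was lost without any of 9 arrays (adjusted p up to 0.121) and Gusb without 1 (0.0716). The calls not named here held whichever array was left out, but with the compared arrays alone those of Gpnmb with CD146 cells for 1 day (adjusted p = 0.208), of Gpnmb (0.155) and Atp6v1a (0.0546) with Ito cells for 1 day and of Grn (0.0611) and Ctss (0.164) with HGF for 1 day were lost too. Quantile normalization also ended those of Atp6v1a, Grn and Ctss, with adjusted p of 0.157, 0.449 and 0.605.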

How the results depend on the processing

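Counts below are called genes of the 32, differences are log2 before subtraction of the median, and the cause was not tested unless the setting itself gives it. Quantile normalization gave 1 call for Kupffer cells with HGF for 1 day (6 in the report), 0 for monocytic macrophages with HGF for 1 day (4 in the report), with 1 at an unadjusted p under 0.05, and 1 for the difference of the HGF responses of 1 day (4 in the report). It also called 4 of the other pump subunits in Kupffer cells with Ito cells for 3 days and 1 of the other hydrolases in monocytic macrophages with CD146 cells for 3 days. Lamp2 in Kupffer cells with HGF for 1 day turned to -0.07 and Atp6v1a between the Kupffer controls to -0.01, while Atp6v0d2 lost its calls in Kupffer cells with Ito cells for 3 days (-1.28, adjusted p = 0.0571) and in monocytic macrophages with HGF for 1 day (-0.70, adjusted p = 0.587). Centring gave 17 for Kupffer cells with Ito cells for 1 day (7 in the report), 17 between the controls of 1 day (8), 2 for monocytic macrophages with CD146 cells for 1 day (1) and 1 for the HGF difference of 1 day. Under centring Atp6v1a in monocytic macrophages with HGF for 1 day turned to 0.16, Atp6v0d2 there was at -0.63 (adjusted p = 0.519), and Atp6v0d2 passed between the controls of 1 day at -1.28 (adjusted p = 0.0384).

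Without the dimmest 25% of genes monocytic macrophages with HGF for 1 day kept 2 calls, and Atp6v0d2 was at -1.23 (adjusted p = 0.0542). The trend and robust variance model gave 2 for Kupffer cells with CD146 cells for 1 day (4 in the report). Array weights raised these counts: Kupffer cells of 1 day had 14 with HGF, 19 with Ito cells and 11 with CD146 cells, monocytic macrophages had 14 with Ito cells and 10 with CD146 cells for 1 day and 5 with CD146 cells for 3 days, the controls differed in 20 after 3 days and 15 after 1 day, and the response differences of 1 day were 8 for HGF, 13 for Ito cells and 6 for CD146 cells. With weights Atp6v0d2 passed in Kupffer cells with HGF for 3 days (0.83, adjusted p = 0.0415), in monocytic macrophages with Ito cells for 3 days (-1.01, adjusted p = 0.016) and in the CD146 difference of 1 day (1.24, adjusted p = 0.0343).

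A 2-fold minimum, which can only remove calls, left 13 between the monocytic controls, 11 between the Kupffer controls, 3 and 2 for Kupffer cells with Ito and with CD146 cells for 1 day, and 2 and 5 for monocytic macrophages with HGF and with Ito cells for 1 day. The compared arrays alone, which leave fewer degrees of freedom, gave for Kupffer cells of 1 day 0 with HGF (5 at an unadjusted p under 0.05), 3 with Ito cells and 0 with CD146 cells (7 at an unadjusted p under 0.05), and 11 between the Kupffer controls. They gave 4, 5 and 1 for monocytic macrophages of 3 days with HGF, Ito cells and CD146 cells, 4 with CD146 cells for 1 day, and 2 between the controls of 1 day. The response differences of 1 day were 0 for HGF (4 at an unadjusted p under 0.05), 2 for Ito cells and 0 for CD146 cells (9 at an unadjusted p under 0.05), all by limma. Without the 3 arrays that stood apart, a setting added after seeing the data, there were 7 for Kupffer cells with CD146 cells for 1 day, 13 and 4 for monocytic macrophages with Ito and with CD146 cells for 3 days, 3 for the CD146 difference of 1 day, and Atp6v0d2 at -1.02 (adjusted p = 0.0271) in monocytic macrophages with Ito cells for 3 days.

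Leaving out 1 array gave ranges of 4 to 9 for Kupffer cells with Ito cells for 1 day, 1 to 5 with CD146 cells for 1 day, 1 to 2 for monocytic macrophages with HGF for 1 day, 2 to 4 with CD146 cells for 3 days, 5 to 12 between the controls of 1 day and 4 to 10 for the Ito difference of 1 day. Atp6v0d2 ranged over -1.65 to -0.87 in Kupffer cells with Ito cells for 3 days, -1.34 to -1.05 in monocytic macrophages with HGF for 1 day and -1.42 to -0.39 between the controls of 1 day. With the replicate number as a block all 22 counts stayed within 1.5 times and 187 of 194 other single-gene calls held, although the numbers only name the samples (mean correlation of deviations -0.0103 for equal and 0.0055 for unequal numbers). The lowest probe set changed no count or call, but only 55 of the 19505 genes have several probe sets, so this setting tests little. Of the 194 calls, 166 held under quantile normalization, 175 under centring and 191 with weights. Fewer held with the compared arrays alone, at 136, and with the 2-fold minimum, at 142. Signals near the negative controls, as for Slc46a3, Tfeb and Atp6v0d2 in cultures of 1 day and for Ctsk in the Kupffer control of 3 days, limit how far a decrease can be measured.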
